A study of Homo sapiens with 6 samples.

Results

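Promoter peaks of H3K27ac (acetylation of histone H3 at lysine 27) that were common to all 4 libraries of 2 human acute myeloid leukemia (AML) lines were examined. A common promoter peak, called a member here, was a peak of the Kasumi-1 NC list on chromosomes 1 to 22 or X that shared at least 1 base with a peak in each of the other 3 lists. It also had to reach within 2500 bases of a canonical transcription start (upstream or downstream) of a GENCODE protein-coding gene, a stretch called the window. Of 22724 peaks in the Kasumi-1 NC list, 4635 (20.4%) met the rule, and these were 51.1% of the 9078 promoter peaks of that list. All 4 lists together held 93160 peaks on these chromosomes.

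The assay was CUT&Tag: an antibody brings a transposase to nucleosomes that carry the mark, and the fragments it cuts are sequenced. MV4-11 cells carry a KMT2A fusion and Kasumi-1 cells a RUNX1::RUNX1T1 fusion. Each line gave 1 NC library (control hairpin in the methods, untreated in the labels) and 1 sh-ANP32B library (knockdown of ANP32B, a histone-binding protein of the acidic nuclear phosphoprotein family). The labels do not say which hairpin was used, and no dose or time is given. The 2 IgG samples, 1 per line, are not analysed here. Replicates had been merged before peak calling, so that each group was 1 peak list. No difference between NC and sh-ANP32B could therefore be set against the spread between replicates, and no p-value is given. The lists held the position and width of each peak and no height, and library depth is unknown. The members were chosen by the presence of a peak in every list and by its position, and the widths of the members are a description of what was chosen, since a wide peak has more bases to share.

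H3K27ac is written by the acetyltransferases EP300 and CREBBP and marks active promoters and active enhancers. At an active promoter the start of transcription lies in a stretch kept free of nucleosomes, and the acetylated nucleosomes flank it. Many promoters of genes that all cells use lie in CpG islands and are bound by SP/KLF, ETS, NRF1 and YY1 factors, whereas the acetylation of enhancers differs more between cell types.

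The promoters of 6 genes that have a member are printed, and the printed stretch does not always lie under the member. They are that of the targeted gene ANP32B and those of RELT and B3GNT7 (among the members with the most bases covered in all 4 libraries). The others are those of UXS1 (the largest rise in width in MV4-11), SEC16A (among the largest falls in Kasumi-1, chosen after its values were seen) and USP1 (among the steadiest). Each is the 250 bases before the canonical start on hg38, 5′ to 3′ along the gene, with no annotated exon in the stretch. Capitals mark matches to 11 short motifs given below, where overlapping matches run together.
ANP32B, chr9:97983091-97983340, plus strand: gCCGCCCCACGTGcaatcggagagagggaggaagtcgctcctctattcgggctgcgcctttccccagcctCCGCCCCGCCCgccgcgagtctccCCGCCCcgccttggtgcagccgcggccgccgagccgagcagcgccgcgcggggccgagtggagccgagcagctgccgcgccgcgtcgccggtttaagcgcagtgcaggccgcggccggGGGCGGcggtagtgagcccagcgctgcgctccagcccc
RELT, chr11:73376149-73376398, plus strand: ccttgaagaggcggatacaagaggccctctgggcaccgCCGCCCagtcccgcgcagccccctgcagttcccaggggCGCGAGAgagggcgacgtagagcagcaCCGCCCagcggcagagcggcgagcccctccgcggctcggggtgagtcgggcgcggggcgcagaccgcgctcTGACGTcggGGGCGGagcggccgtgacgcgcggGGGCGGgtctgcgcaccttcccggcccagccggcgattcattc
B3GNT7, chr2:231395460-231395709, plus strand: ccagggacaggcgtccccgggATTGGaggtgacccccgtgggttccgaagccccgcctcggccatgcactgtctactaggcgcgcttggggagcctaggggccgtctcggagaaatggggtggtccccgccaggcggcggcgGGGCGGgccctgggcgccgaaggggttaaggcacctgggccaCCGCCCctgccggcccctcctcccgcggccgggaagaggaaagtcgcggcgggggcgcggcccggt
UXS1, chr2:106194302-106194551, minus strand: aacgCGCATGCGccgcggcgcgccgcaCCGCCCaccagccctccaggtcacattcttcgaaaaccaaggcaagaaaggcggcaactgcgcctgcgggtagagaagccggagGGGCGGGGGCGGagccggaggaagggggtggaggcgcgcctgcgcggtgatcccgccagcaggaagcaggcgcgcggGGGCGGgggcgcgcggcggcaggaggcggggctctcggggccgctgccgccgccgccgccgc
SEC16A, chr9:136483041-136483290, minus strand: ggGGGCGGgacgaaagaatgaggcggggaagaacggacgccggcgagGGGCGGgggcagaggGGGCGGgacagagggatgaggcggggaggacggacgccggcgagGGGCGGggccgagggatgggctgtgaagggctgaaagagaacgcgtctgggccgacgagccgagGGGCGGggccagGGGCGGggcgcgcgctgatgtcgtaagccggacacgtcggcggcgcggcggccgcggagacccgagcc
USP1, chr1:62436799-62437048, plus strand: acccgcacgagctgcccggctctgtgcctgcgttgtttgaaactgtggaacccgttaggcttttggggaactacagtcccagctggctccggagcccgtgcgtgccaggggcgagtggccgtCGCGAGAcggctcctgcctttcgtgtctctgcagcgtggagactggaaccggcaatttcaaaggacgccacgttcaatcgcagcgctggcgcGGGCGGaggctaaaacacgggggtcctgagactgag
The ANP32B stretch was 77.2% GC and held 5 GC boxes and 1 E-box. The SEC16A stretch held 6 GC boxes and the UXS1 stretch 4. The USP1 stretch was the least GC-rich of the 6, at 63.6%, and held 1 GC box and 1 ZBTB33 motif. A match is a description of the letters only.

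The members lay over 5191 of 19962 protein-coding genes (26.0%), and 3847 of them (83.0%) overlapped the window of 1 gene. A further 700 overlapped the windows of 2 genes, and 88 those of 3 or more, with 6 at most. Genes in head-to-head pairs (starts at most 1000 bases apart on opposite strands, facing away from each other) were 18.2% of member genes and 9.49% of all genes. Of 984 such pairs, both genes had a member in 493 and 1 gene alone in 0. The windows of such a pair overlap, so that 1 peak usually serves both genes. Members were found on every chromosome examined, over 16.1% of the genes of chromosome X and 20.5% to 32.2% of those of the other chromosomes.

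The list that set the limit was that of MV4-11 sh-ANP32B. Of 4443 Kasumi-1 NC promoter peaks that were not members, 1396 were missing from that list alone. By comparison, 236 were missing from the MV4-11 NC list alone and 86 from the Kasumi-1 sh-ANP32B list alone. Of the 5727 genes with any promoter peak in MV4-11 sh-ANP32B, 5117 (89.3%) had a member, against 54.4% of the 9537 with one in Kasumi-1 NC. For 74 further member genes, the MV4-11 sh-ANP32B peak touched the Kasumi-1 NC peak outside the promoter window. When the rule was applied from the MV4-11 NC list, 4785 of its peaks (19.5%) met it.

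The members did not cover the same bases in each library. Of the 10015661 bases under members, 93.8% were under a peak of the Kasumi-1 knockdown library, 65.5% under one of MV4-11 NC and 53.7% under one of its knockdown library. The bases of a member covered in all 4 libraries are called its core here, and they need not form an unbroken stretch. The core had a median of 775 bases (quartiles 456 and 1292.5), and cores made up 48.6% of the bases under members. For 63 members (1.36%) there was no such base, because the other lists touched different parts of the Kasumi-1 NC peak.

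Values at the edges of the rule show how close the choice was. The members farthest from a start lay 2491 bases (RXFP4) and 2490 bases (SH2B3) away, and the nearest peaks outside lay 2507 bases (IGLON5) and 2509 bases (CD74) away. The smallest overlaps with a list were 4 bases (SUCNR1) and 7 bases (NR4A3), and the smallest gaps that kept a peak out were 1 base (EXOC5 and AP5M1) and 2 bases (ANKRD40). Only 14 members shared under 50 bases with a list.

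Width was compared for the 3277 members (70.7%) that were matched 1 to 1 in all lists. Here the Kasumi-1 NC peak overlapped exactly 1 peak of every other list, and that peak overlapped no other Kasumi-1 NC peak. The MV4-11 NC and sh-ANP32B peaks of a member were not matched with each other and need not overlap. At MRPL55, for example, the MV4-11 NC peak ended 198 bases downstream of the start and the sh-ANP32B peak began 574 bases downstream. The other members mostly lay over several peaks, with 232 of all members over 2 or more peaks of the Kasumi-1 knockdown list, 604 over those of MV4-11 NC and 659 over those of its knockdown list. In Kasumi-1 the median width was 1542 bases in the NC library and 1548 bases after knockdown. For MV4-11 it was 1127 bases in the NC library and 845 bases after knockdown. The members were thus of like width in both Kasumi-1 libraries, narrower in MV4-11 NC and narrowest in MV4-11 sh-ANP32B. Within each list the median member stood at the 68.4 (NC) and 69.8 (sh-ANP32B) percentile of width in Kasumi-1, and at 65.8 (NC) and 56.7 (sh-ANP32B) in MV4-11. At 65.3% of the members the narrowest of the 4 peaks was that of MV4-11 sh-ANP32B.

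**Figure D1:**
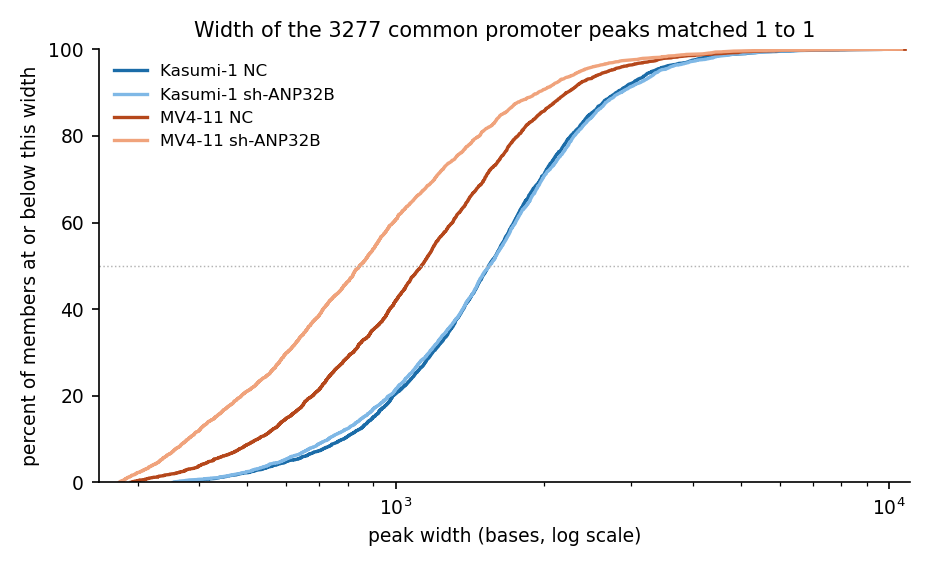
Percent of the 3277 matched members (vertical axis) at or below each peak width in bases (horizontal axis, log scale), 1 line per library. The Kasumi-1 lines nearly coincide, with medians of 1542 and 1548 bases, and the MV4-11 sh-ANP32B line, with a median of 845 bases, lies farthest to the left.

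A member that was wide in one library of a line was wide in the other. As a description over 3277 members, Spearman's rho of the widths was 0.92 between the Kasumi-1 libraries and 0.74 between the MV4-11 libraries. Across the lines it was between 0.42 and 0.56. The median ratio of the widest to the narrowest of the 4 peaks was 1.98-fold, and it was at least 4-fold at 393 members.

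The knockdown libraries were then set against the NC library of the same line. In Kasumi-1 the median width ratio of the members was 1.01 (log2 0.016), and 1386 of 3277 members (42.3%, 95% interval 40.6 to 43.99) were narrower in sh-ANP32B. Over all 18816 peaks matched 1 to 1 in that line, 40.5% were narrower. A width at least 1.5-fold narrower was seen at 154 members (4.70%) and one at least 1.5-fold wider at 72 (2.197%), where the shares over all matched peaks were 5.74% and 5.84%. In MV4-11 the median ratio was 0.834 (log2 -0.26), a median change of -180 bases. Here 2494 members (76.1%, 74.6 to 77.5) were narrower in sh-ANP32B, against 63.4% of 15348 matched peaks. Those peaks were matched directly between the MV4-11 lists, whereas the members were matched through the Kasumi-1 NC peak. At least 1.5-fold narrower were 942 members (28.7%) and at least 1.5-fold wider were 115 (3.51%), where all matched peaks gave 22.3% and 8.54%. Intervals cover counting error over the members alone and treat them as independent.

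Distal peaks common to all 4 libraries met the same overlap rule outside promoter windows and were set beside the members. There were 7053 of them, 4299 matched 1 to 1, with median widths that went from 1114 (NC) to 1196 bases (sh-ANP32B) in Kasumi-1, and from 1165 (NC) to 1014 bases (sh-ANP32B) in MV4-11. They were narrower in sh-ANP32B in 35.9% of cases in Kasumi-1 and in 60.1% of cases in MV4-11. Promoter peaks found only in the libraries of 1 line were matched directly within that line. They were narrower in sh-ANP32B at 52.3% of 1905 matched peaks in Kasumi-1 and 58.8% of 216 in MV4-11. Their median NC widths were 965 and 653.5 bases, and they were not split by width. A larger share narrower than among distal peaks was thus not seen at all promoter peaks of MV4-11. Since width differed between members and common distal peaks, their shares were also read within quartiles of the NC width of the members. In MV4-11 the share narrower was 59.9% of members and 39.0% of distal peaks in the narrowest quartile, and 84.0% and 72.3% in the widest. The share was higher among members than among distal peaks in each of the 4 quartiles in MV4-11. In Kasumi-1 it was 38.8% of members and 32.4% of distal peaks in the narrowest quartile, and 43.7% and 43.2% in the widest. Intervals of these shares cover counting error over peaks alone. No test of the difference between members and distal peaks over libraries was possible.

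**Figure D2:**
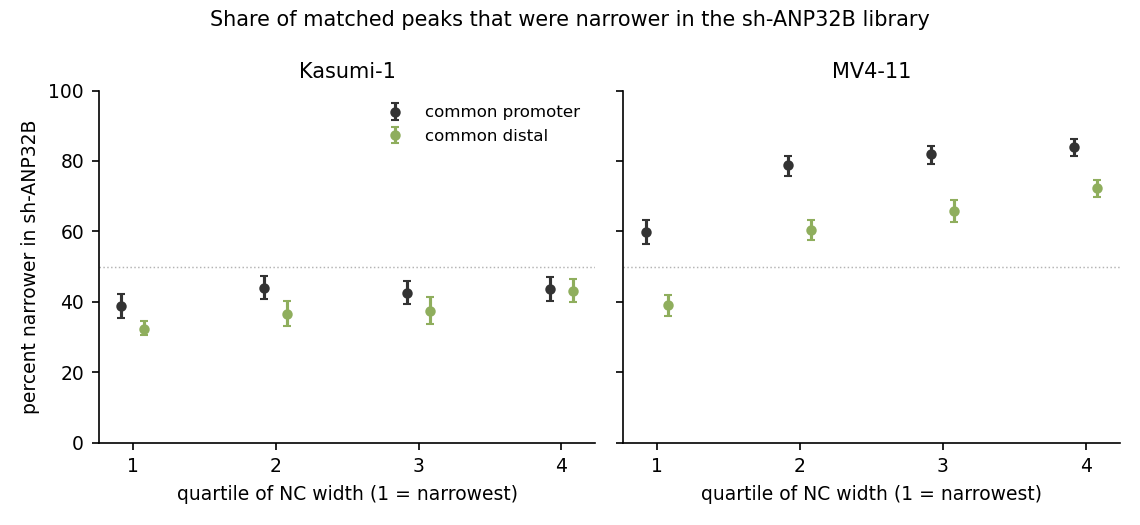
Percent of matched peaks that were narrower in sh-ANP32B than in NC (vertical axis) by quartile of NC width (horizontal axis, quartiles set on the members), for common promoter and common distal peaks in each line. Bars are 95% Wilson intervals, and in MV4-11 the promoter points lie above the distal points in every quartile, from 59.9% against 39.0% to 84.0% against 72.3%.

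Members that were narrower in one line were not set apart in the other. In both lines 1069 members (32.6%) were narrower, where the product of the shares of the lines is 32.2%, and Spearman's rho of the log2 width ratios was 0.030 over 3277 members. Of the 154 members at least 1.5-fold narrower in Kasumi-1, 52 (33.8%) were so in MV4-11, beside 28.7% of all matched members. The most frequent combination was wider in Kasumi-1 and narrower in MV4-11, at 1406 members (42.9%).

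The place of the peaks around the start was read next. Among 1486 members matched 1 to 1, over 1 gene and with the start inside all 4 peaks, the peak reached farther downstream than upstream. The median peak of Kasumi-1 NC reached 675 bases upstream and 893 downstream, and that of its knockdown library 703.5 upstream and 914.5 downstream. The median peak of MV4-11 NC reached 529 bases upstream and 748.5 downstream, and that of its knockdown library 418 upstream and 606.5 downstream. The downstream side was the longer in 63.8% to 65.9% of these members in each library. In MV4-11 both edges drew in after knockdown, by a median of -43 bases upstream (95% interval -51 to -34) and -63 bases downstream (-75 to -51). In Kasumi-1 the median shifts were 10 and 8 bases outward, and 54.4% of upstream and 57.5% of downstream edges moved by no more than 50 bases.

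**Figure D3:**
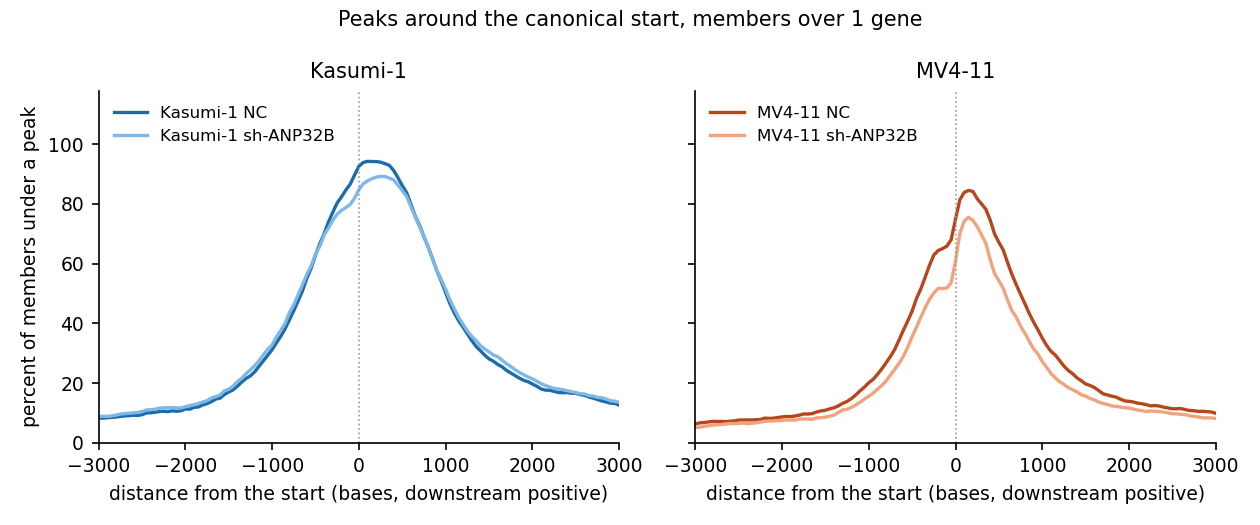
Percent of the 3846 members with 1 canonical start in reach that had a peak (vertical axis) at each distance from the canonical start in bases (horizontal axis, downstream positive), 1 panel per line. The Kasumi-1 NC line peaks at 94.3% and the sh-ANP32B line at 89.2%, with the lines apart near the start and together beyond it, whereas in MV4-11 the sh-ANP32B line, which peaks at 75.6%, lies below the NC line, which peaks at 84.5%, on both sides.

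The start was then followed from library to library. A canonical start lay inside 87.6% of the Kasumi-1 NC peaks that made up the members, and inside the core at 52.4% (50.9 to 53.8). Of 576 members that held no start, 222 lay upstream of it, 324 downstream and 30 upstream of one start and downstream of another. Over the 5191 member genes, the share with the start under a peak went from 92.7% in Kasumi-1 NC to 85.5% in Kasumi-1 sh-ANP32B. At 500 bases downstream of the start the shares were 82.3% and 80.9%, and at 500 bases upstream 68.1% and 67.5%. Of these 3 places the difference in Kasumi-1 was thus largest at the start. In MV4-11 the share went from 73.4% to 59.7% at the start, from 61.5% to 49.3% at 500 bases downstream and from 48.5% to 39.6% at 500 bases upstream, so that it was lower at all 3 places.

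Starts that came out of their peak in Kasumi-1 were at GC-rich promoters. Of 4812 member genes with the start under a Kasumi-1 NC peak, 424 (8.81%) had it under no peak in sh-ANP32B, while 48 starts were newly covered. Over all 8266 genes with the start under a Kasumi-1 NC peak the share was 17.1%, which includes genes that lost the whole promoter peak and could not be members. Member genes were split into quintiles of the GC content of the promoter, from 250 bases before to 50 bases after the start. From the GC-poorest to the GC-richest quintile the share that came out of its peak was 1.33%, 2.93%, 5.66%, 10.4% and 23.8% in Kasumi-1. The share also rose over all genes, at 5.38%, 7.35%, 12.7%, 19.6% and 38.2% by the same GC bounds, and from 12.5% to 55.9% in genes with no member. Newly covered starts ran the other way, at 28, 14, 4, 2 and 0 genes. In MV4-11, 891 of 3808 starts (23.4%) came out of their peak, against 36.7% of 4753 over all genes. The shares by quintile were 16.7%, 22.7%, 22.96%, 24.3% and 31.1%, beside 26.8%, 37.5%, 36.6%, 37.97% and 45.03% over all genes, and 30 to 41 starts were newly covered in each.

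**Figure D4:**
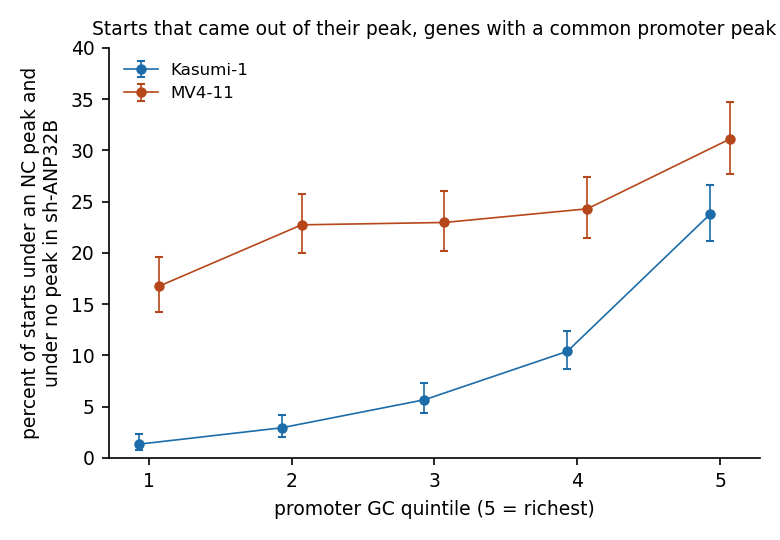
Percent of canonical starts under an NC peak that were under no peak in the sh-ANP32B library of the same line (vertical axis), for member genes by quintile of promoter GC content (horizontal axis). Bars are 95% Wilson intervals, and the Kasumi-1 points go from 1.33% to 23.8% while the MV4-11 points go from 16.7% to 31.1%.

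Most of these promoters kept a peak beside the start, as the rule required one in every library. Of the 424 genes in Kasumi-1, 127 still had a peak on both sides within 1000 bases, 202 on the downstream side alone, 89 on the upstream side alone and 6 on neither. In MV4-11 the counts were 107, 505, 233 and 46 of 891. A gap between peaks can be seen only where it exceeds the joining distance of the caller, and the smallest gap was 358 bases (NC) and 355 bases (sh-ANP32B) in the Kasumi-1 lists, and 290 bases (NC) and 276 bases (sh-ANP32B) in those of MV4-11. Promoter GC moved with this result in Kasumi-1. Whether GC-dependent recovery of fragments in the libraries had a part in it was not tested. For width, matched members were split into quintiles of the GC content of the whole peak. The share narrower in Kasumi-1 sh-ANP32B was 55.0% in the GC-richest quintile and 38.3% to 41.4% in the other 4. The difference in width thus lay mainly in the GC-richest quintile. In MV4-11 the share narrower was 72.0% to 79.0% in all 5.

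The members with the largest width changes were named by rule, and their changes are a description. In Kasumi-1 the largest falls were at the peak shared by ZNF319 and USB1 (a U6 RNA processing enzyme), from 2060 to 487 bases, and at DUS1L, a tRNA-modifying enzyme, from 1509 to 373 bases. The narrowest peak of the Kasumi-1 sh-ANP32B list measured 354 bases. SEC16A, which organizes the sites where cargo leaves the endoplasmic reticulum, went from 1394 to 380 bases. Its Kasumi-1 NC peak ran from 812 bases upstream to 581 bases downstream of the start, and the sh-ANP32B peak from 193 to 572 bases downstream. The upstream stretch printed above was thus covered in NC and bare in sh-ANP32B. In MV4-11 the SEC16A peak lay downstream of the start in both libraries, with 576 and 587 bases. CREBBP, an H3K27 acetyltransferase, measured 2115 bases (NC) and 579 bases (sh-ANP32B) in Kasumi-1, and 1359 and 636 bases in MV4-11. Its Kasumi-1 sh-ANP32B peak lay 666 to 1244 bases downstream of the start, while the MV4-11 sh-ANP32B peak, from 476 bases upstream to 159 bases downstream, still held it.

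The largest rises in Kasumi-1 were at MEFV, which encodes the inflammasome protein pyrin, from 509 to 1422 bases, and at the promoter shared by COX11 and STXBP4, from 379 to 963 bases. UBA1, the main ubiquitin-activating enzyme, went from 1072 to 2547 bases, and DDTL from 401 to 952 bases. The narrowest peak of the Kasumi-1 NC list measured 357 bases. The MEFV peak was also wider in MV4-11 sh-ANP32B than in NC, at 665 against 293 bases, but it ended 1911 to 2275 bases upstream of the start in every library. The COX11 and STXBP4 peak moved the other way in MV4-11, from 1325 to 691 bases.

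In MV4-11 the largest fall was at IRX3, a homeobox transcription factor. Its peak measured 3921 (NC) and 3837 bases (sh-ANP32B) in Kasumi-1, and 3463 (NC) and 373 bases (sh-ANP32B) in MV4-11. The promoter shared by IQCB1 and EAF2 went from 2244 to 311 bases, ZG16B from 1699 to 283 bases and CCNL2 from 2317 to 395 bases. The narrowest peak of the MV4-11 sh-ANP32B list measured 275 bases. At CCNL2, a cyclin tied to splicing, the remaining peak lay wholly upstream, 643 to 249 bases before the start.

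The largest rise in MV4-11 was at UXS1, an enzyme that makes UDP-xylose. Its widths were 1122 (NC) and 481 bases (sh-ANP32B) in Kasumi-1, and 372 (NC) and 1403 bases (sh-ANP32B) in MV4-11. All 4 UXS1 peaks began downstream of the start, at 34 to 386 bases, so that the printed stretch was under none of them. PDPK1, the kinase that activates AKT, went from 418 to 1223 bases, GRN, which encodes progranulin, from 317 to 898 bases, and COX7C, a subunit of cytochrome c oxidase, from 309 to 874 bases. The MV4-11 NC peaks of these genes measured 309 to 418 bases, where the narrowest peak of that list measured 289 bases.

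The steadiest members had nearly the same width in every library. RB1CC1, an autophagy gene, had widths of 1864, 1867, 1858 and 1873 bases, in the order NC and sh-ANP32B of Kasumi-1, then NC and sh-ANP32B of MV4-11. USP1, a deubiquitinase of DNA repair, had 2246, 2248, 2196 and 2236 bases. PCBP1, an RNA-binding protein, had 3834, 3846, 3871 and 3777 bases, and SPG11 had 1660, 1708, 1689 and 1689 bases. All 4 of these cores held the start.

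The longest cores, counted as bases that may lie in several pieces, were far above the median of 775 bases and did not always lie over a start. The longest, 20039 bases, spanned GRK2, a kinase of G protein-coupled receptors, and ANKRD13D. It lay in a Kasumi-1 NC peak of 26984 bases that corresponded to 4 peaks of the MV4-11 NC list and 5 of its knockdown list. SH3BP2, an adaptor of immune receptor signaling, followed with 12157 bases, and then TSPOAP1 with 9709, ZBTB7B with 9703 and RELT, a receptor of the tumor necrosis factor family, with 9416. MMP25, a leukocyte metalloprotease, had 9155 bases, B3GNT7 8956 and PTPN6, the phosphatase SHP-1 of blood cells, 8826. Of these cores only those of TSPOAP1 and B3GNT7 lay under 1 peak in every library. That of SH3BP2 was spread over 5 peaks in each MV4-11 library. At RELT the Kasumi-1 NC peak began 2381 bases downstream of the start, whereas the MV4-11 NC library had a peak from 444 bases upstream, over the stretch printed above. At B3GNT7 all 4 peaks ended upstream of the start, 290 to 426 bases before it, so that the printed stretch was under none of them. At TSPOAP1 they ended 643 to 1691 bases before it. These members entered through the window and not through the start.

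Genes that every cell uses were among those that carried members most often. Of 85 cytosolic ribosomal protein genes, 71 (83.5%, 95% interval 74.2 to 89.9) had a member, beside 26.0% of all genes. The shares were 75% of 20 chaperone genes of the CCT and HSP families, 69.2% of 39 proteasome subunit genes, 65.0% of 80 splicing factor genes and 64.5% of 76 oxidative phosphorylation subunit genes. Translation initiation factors (29 of 51), replication and mitosis genes (21 of 37), Mediator subunits (15 of 28), mitochondrial ribosomal proteins (34 of 78) and aminoacyl-tRNA synthetases (13 of 35) followed. Among MYC signature genes it was 13 of 20, among histone acetyltransferases 7 of 12, among RNA polymerase II subunits 5 of 12 and among histone deacetylases 6 of 16. Of all genes with a Kasumi-1 NC promoter peak, 54.4% had a member. On that base cytosolic ribosomal proteins gave 71 of 82 and proteasome subunits 27 of 32. Below 54.4% were mitochondrial ribosomal proteins (34 of 69), aminoacyl-tRNA synthetases (13 of 29), RNA polymerase II subunits (5 of 11) and histone deacetylases (6 of 13). The other lists named here lay above it. When at least 50% of the Kasumi-1 NC peak had to be covered in each library, 15 of the 20 lists with a member had a share lower by over 1.5 times, and the number of all genes with a member was 1.85 times lower. The lists were chosen with earlier results of these data known, and their shares are descriptions.

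Lineage lists were read beside the 26.0% of all genes with a member. Of 25 myeloid transcription factors, 17 (68.0%, 48.4 to 82.8) had a member, SPI1, CEBPA and RUNX1 among them. Of 18 leukemia surface antigens it was 2 (CD44 and FCGR1A, 11.1%, 3.10 to 32.8), and of 14 neutrophil granule protein genes 3 (21.4%, 7.57 to 47.6). Both intervals hold the share of all genes. MPO, the main granule enzyme of myeloid cells, had no promoter peak in any library. Of 8 defining myeloid markers, a promoter peak was found at 6 in both Kasumi-1 libraries, at 6 in the MV4-11 NC library and at 3 after knockdown in MV4-11. Over all genes, 35.8% had a promoter peak in MV4-11 NC and 28.7% in its knockdown library. Of 13 B cell, T cell and erythroid markers, 2 had a member (CD79A and KLF1, 15.4%, 4.33 to 42.2), and this interval also holds the share of all genes. All 4 T cell markers were without a promoter peak in any library. The KLF1 peaks began 1219 to 2922 bases downstream of its start, with a core of 48 bases. Of 10 liver and neuron markers 0 had a member, of 400 olfactory receptor genes 2, and of 476 ZNF zinc finger genes 97 (20.4%).

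**Figure D5:**
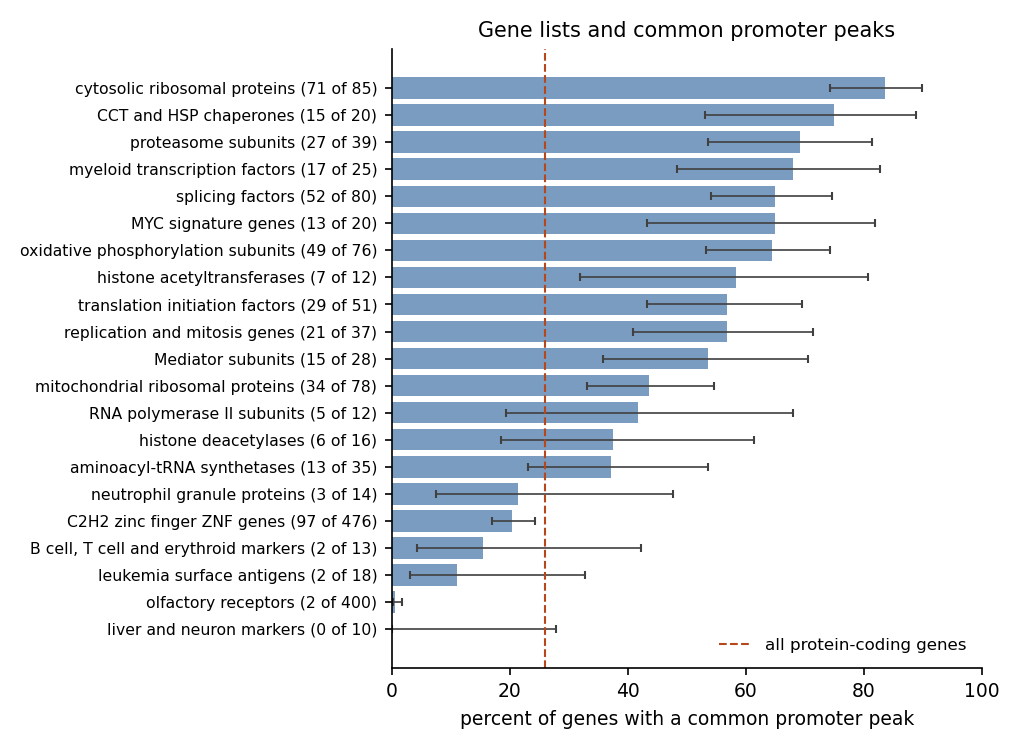
Percent of the genes of each list that had a common promoter peak (horizontal axis), with the counts in parentheses, for 21 lists (vertical axis). Whiskers are 95% Wilson intervals and the dashed line is the 26.0% of all protein-coding genes, with cytosolic ribosomal proteins highest at 83.5% and liver and neuron markers lowest at 0.

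The width change in MV4-11 was seen in most lists. All member genes with a matched peak gave 3160 distinct peaks, of which 76.6% were narrower, with a median log2 ratio of -0.27. Replication and mitosis genes had 18 of 18 matched members narrower (median log2 -0.28), splicing factors 32 of 43 (-0.29) and ZNF genes 58 of 72 (-0.43). Ribosomal proteins of the cytosol had 45 of 57 narrower (-0.23) and those of mitochondria 23 of 29 (-0.26). Proteasome subunits stood at 13 of 26 (-0.037), with medians of 935.5 bases in NC and 919.5 in sh-ANP32B. Among them PSMA7, in a promoter shared with SS18L1, measured 3355 (NC) and 3397 bases (sh-ANP32B) in Kasumi-1, and 3381 (NC) and 3549 bases (sh-ANP32B) in MV4-11. In Kasumi-1 the share narrower ran from 9 of 43 splicing factors to 15 of 24 translation initiation factors in the lists with over 20 matched members, and the median log2 ratios of these lists lay between -0.02 and 0.10.

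Starts that came out of their peak were counted in the same lists. In Kasumi-1 they were 0 of 68 for cytosolic ribosomal proteins, 0 of 47 for oxidative phosphorylation subunits and 0 of 50 for splicing factors. The median promoter GC of these lists was 60.0%, 60.3% and 62.8%, beside 74.0% for the starts that came out. The share was also 0 of 16 for myeloid transcription factors and 0 of 15 for CCT and HSP chaperones, at a median promoter GC of 69.0% and 65.3%. Over all member genes it was 8.81%. Translation initiation genes gave 4 of 29 (EIF1AX, EIF2AK2, EIF2AK4 and EIF4G1), ZNF genes 8 of 95, and the histone acetyltransferases CREBBP and KAT6B came out among 7. In MV4-11 the same lists gave 11 of 63 cytosolic ribosomal proteins, 9 of 41 oxidative phosphorylation subunits and 6 of 46 splicing factors. Of 17 replication and mitosis genes 6 came out (CCNA2, CCNB2, CDT1, ORC6, PLK1 and POLE), and of 15 myeloid transcription factors 5 (CEBPA, CEBPB, CEBPE, KLF4 and RUNX1). These counts stand beside 23.4% of all member genes and 36.7% of all genes with the start under an MV4-11 NC peak. At KLF4 the Kasumi-1 peak went from 1801 to 663 bases, with the start under it in both libraries. The MV4-11 peak went from 579 bases that reached 55 bases past the start to 442 bases that ended 229 bases before it.

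Of ANP32B, ANP32A and 8 genes that the study displayed or followed, 7 were members, and other genes of the study were not looked up. ANP32B had widths of 3961, 3926, 3909 and 2631 bases in the same order, at chr9:97982395-97986355 in Kasumi-1 NC. The MV4-11 sh-ANP32B peak drew in on both sides, from 932 to 613 bases upstream and from 2976 to 2017 bases downstream. ANP32A, its closest family member, had 4667, 4687, 4957 and 3972 bases. CTPS1, an enzyme of CTP synthesis, had 1931, 1748, 1455 and 672 bases, and its MV4-11 sh-ANP32B peak began 5 bases downstream of the start. MCM6, a helicase subunit of replication, had 1380, 1671, 1299 and 790 bases, and PLK1, a mitotic kinase, 2400, 2528, 1227 and 923 bases. RANBP1 and TRMT2A shared 1 member of 2117 bases, which measured 2094 bases in Kasumi-1 sh-ANP32B and lay over 2 peaks in each MV4-11 library, of 1279 bases together before and 934 after knockdown. MYC and CCNB1 were not members for want of a promoter peak in MV4-11 sh-ANP32B, and CDK2 for want of one in either MV4-11 library.

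The members were GC-rich, and the rule did not use sequence. Their median GC content was 60.7%, and the median ratio of observed to expected CpG was 0.714, with 70.9% at or above 0.6 (69.6 to 72.2), the usual mark of a CpG island. Among common distal peaks 5.70% reached that ratio, and among Kasumi-1 NC promoter peaks that were not common 74.9% did. Members with and without that ratio were narrower in MV4-11 sh-ANP32B in 77.5% and 70.9% of cases.

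The promoters of member genes (250 bases before to 50 after the start) were searched on both strands for 11 motifs. As promoters of like GC content hold like motifs, the share in other genes weighted to the GC quintiles of the members is given beside each. The ETS motif CCGGAAG was in 21.5% of member promoters, 14.1% of all promoters and 12.8% of GC-weighted others. The ZBTB33 motif TCTCGCG was in 9.52%, 5.07% and 4.19%, and the YY1 motif AAGATGG in 9.65%, 6.43% and 5.12%. The NRF1 motif GCATGCG was in 7.28%, 5.09% and 4.89%, the E-box CACGTG in 11.3%, 8.75% and 8.54%, and the CRE core TGACGT in 13.0%, 9.49% and 8.69%. The GC box GGGCGG was in 73.7%, 61.3% and 67.3%, and the CCAAT box (CCAAT) in 35.3%, 36.0% and 34.4%. Lower in member promoters than in the GC-weighted others were the shares of the TATA box TATAAA (5.80%, 9.73% and 7.93%), the RUNX motif TGTGGT (8.78%, 10.7% and 9.78%) and the AP-1 motif TGANTCA (4.24%, 5.44% and 4.67%). Motifs that overlap were each counted on their own.

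Promoters with peaks in both Kasumi-1 libraries alone had the ETS motif in 23.03% and the ZBTB33 motif in 3.94%. The ETS share was thus near that of the members and the ZBTB33 share was not. In those promoters the NRF1 motif was in 7.89%, the GC box in 76.4%, the E-box in 10.3% and the CCAAT box in 38.6%. The YY1 motif was in 7.69%, the CRE core in 10.2%, the RUNX motif in 9.40%, the TATA box in 3.21% and the AP-1 motif in 3.41%. The higher NRF1 and GC box shares and the lower TATA box and AP-1 shares were thus not particular to the members. The width change was set beside each motif. In MV4-11 the share narrower was between 75% and 81.5% for members over 1 gene with any of the other 10 motifs, and 62.7% for the 126 with the AP-1 motif, against 76.4% for the 2615 without it. With the NRF1 motif it was 81.4%, against 75.3% without, and the median log2 ratios were -0.38 and -0.26. With the ZBTB33 motif it was 81.5%, against 75.2%. In Kasumi-1 the AP-1 shares were 31.7% and 43.3%, and those with and without the GC box 44.7% and 37.6%.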

How the data were processed

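H3K27ac CUT&Tag peaks of 4 libraries were used, 1 per group, named by the labels. The authors aligned reads to hg38, removed duplicates with Picard, merged replicates and called peaks at a q-value of 0.01. The methods name Bowtie2 v2.2.5, samtools v1.15.1 and MACS2 v2.2.7, whereas the submitters' processing notes name Bowtie2 2.4.4 and MACS3 3.0. Whether IgG served as the control is not given in the sources used here. The deposited lists hold position and length in bases, counted from 1, with no height or depth. Columns of values of other samples numbered 0.

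Members were found by interval overlap (Python 3.11.15, numpy 2.4.6, pandas 2.3.3), with canonical starts of protein-coding genes from GENCODE v44 (19970 gene identifiers, 19962 symbols) and sequence from hg38 (pysam 0.24.0). The overlap code was tested on simulated lists. The members and gene lists were chosen with earlier results of these data known. Share intervals are 95% Wilson intervals, and those of medians come from the binomial distribution of ranks. They cover counting error only. Named genes were ANP32B, ANP32A and 8 genes the study followed, the 8 longest cores, the 4 largest falls and rises in width per line, the 4 steadiest members, the members nearest each threshold, and the longest and shortest core of each list. Of the last, only some are printed. The printed promoters follow that rule where no exon lay in the stretch. A further promoter under that rule is not reported here. The SEC16A promoter, the counts of starts that came out of a peak and the genes named in them were added after values were seen. Alternatives were another window, overlap, joining, minimum width, base list and GC range.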

Additional observations from a re-analysis of the deposited data

Results flagged for a closer look

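The median log2 width ratio of the members (sh-ANP32B over NC) was -0.26 in MV4-11 and 0.016 in Kasumi-1. It was picked out because the same contrast gave opposite signs in the 2 lines. Opposite signs were also seen over all peaks matched within the line, at 0.028 in Kasumi-1 and -0.13 in MV4-11. Common distal peaks gave 0.044 in Kasumi-1 and -0.10 in MV4-11, so that the signs were not particular to the members. Each line had 1 library per group, and the difference was not tested. Depth of the libraries, which could move peak width, is unknown, and its part in the result was not tested. Groups of 1 library could not be searched for samples far from the others.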

How the results depend on the processing

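No paired analysis was possible because each group was 1 peak list, and for the same reason no replicate could be left out. Of 78 repeats of the main results under alternatives, 56 stayed within their limits (1.5 times for a count, the 95% interval for other values), 21 moved and 1 changed sign. Intervals cover counting error only. When at least 50% of the Kasumi-1 NC peak had to be covered in each list, 2495 peaks and 2805 genes remained. The share narrower was then 36.8% in Kasumi-1 and 72.0% in MV4-11, the median log2 ratios 0.028 and -0.15, the MV4-11 edge shifts -33 and -50.5 bases, the share of cores with a start 69.1%, and the share at a CpG ratio of 0.6 was 73.2%. The correlation of the width ratios turned from 0.030 to -0.023, which reads as none either way. Of the 20 gene lists with a member, 15 had a share lower by over 1.5 times, and the number of all genes with a member was 1.85 times lower. Cytosolic ribosomal proteins went from 83.5% to 52.9%, oxidative phosphorylation subunits from 64.5% to 38.2%, myeloid transcription factors from 68.0% to 36%, MYC signature genes from 65% to 20% and RNA polymerase II genes from 41.7% to 0%, the last under the share of all genes. The share of cores with a start was 56.8% with a window of 1000 bases, 57.8% with peaks at most 1000 bases apart joined, 56.2% with a minimum width and joining gap of 357 bases in all lists, 50.8% with members from the MV4-11 NC list and 49.7% with members of 1 gene. The window of 1000 bases gave a CpG share of 75.8%. The shared minimum width and gap gave a MV4-11 median log2 ratio of -0.24 and, as a choice made after the data were seen, 15.7% of all member genes with a start that came out of its peak in MV4-11, beside 17.2%. Bases under peaks in the promoter windows gave a Kasumi-1 log2 ratio of 0.013. The lower 4 GC quintiles gave 0.022 and 39.1% narrower in Kasumi-1. In the GC-richest quintile of member genes, 22.4% had a start that came out of its Kasumi-1 peak, and 21.4% with members from the Kasumi-1 sh-ANP32B list, an alternative also added later. Depth and peak height, which the lists do not give, limit every width comparison.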
